A study of Mus musculus with 346 samples.

Results

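Apoa1, Apoa2, Apob, Apoe and Lpl encode proteins of the lipoprotein particles that carry fat in blood and the enzyme that releases that fat. They were chosen by name, and all 5 are present among the 20474 genes of the table. The 346 single cells came from mouse embryos that carry the Tg(Prox1-EGFP) transgene, in which regulatory DNA of the homeobox gene Prox1, active in liver and pancreas progenitors, drives green fluorescent protein. Fluorescent cells were sorted 1 to a well and read by Smart-seq2, which covers whole transcripts of a single cell. The plates held 82 foregut cells of embryonic day (E) 8.5 (plate 1A), 78 liver cells of E10.5 (plate 5A), 27 cells of the ventral (plate 3) and 86 of the dorsal pancreatic bud of E10.5 (48 on plate 2A and 38 on plate 2B), and 73 pancreas cells of E14.5 (plate 4A). All groups carry the transgene and the same sort, so each serves only as a reference for the others.

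The number of embryos behind each plate is not given in the sources used here. Each group therefore counts as 1 sample, cells are not replicates, and no test or p-value was computed. An SD below is the spread over the cells of a group. Plate and tissue cannot be told apart except in the dorsal bud, where 2 plates exist. A level is log2(normalized reads + 1), with 0 where no read was found. A cell counts as detected for a gene at 5 or more normalized reads, and a gene is called higher or lower where mean levels differ by at least 1.

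As background, lipoproteins are particles of fat and cholesterol wrapped in proteins made mainly by liver and gut, and in the embryo also by the yolk sac. Apoa1 is the main protein of high density lipoprotein and activates Lcat, the enzyme that matures the particle, and Apoa2 is the next most abundant protein there. Apob is the large scaffold on which very low density lipoprotein and, in the gut, chylomicrons are built. Apoe is the ligand by which particles bind receptors on cells, and many cell types besides hepatocytes make it, macrophages and glia among them. Lpl, lipoprotein lipase, cuts the triglycerides of circulating particles. Adult muscle and fat are its main sources, and the adult liver makes little of it, whereas the liver of newborn rodents is known to make it.

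On GRCm38, with the GENCODE M21 annotation, Apoa1 lies on the plus strand of chromosome 9 from 46228580 to 46230466 and Apoa2 on the plus strand of chromosome 1 from 171225054 to 171226379. Apob spans 7977648 to 8016835 on the plus strand of chromosome 12, Apoe 19696109 to 19699188 on the minus strand of chromosome 7, and Lpl 68880491 to 68907448 on the plus strand of chromosome 8. The genes differ much in length. The longest annotated transcript has 518 bases in 4 exons for Apoa2, 1035 in 4 exons for Apoa1, 1408 in 4 exons for Apoe, 4115 in 10 exons for Lpl and 13934 in 29 exons for Apob. None of the 5 loci overlaps another annotated gene.

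The DNA just upstream of 4 of the 5 members is shown as the sequence context of genes of which Apoa1, Apoa2 and Apoe, on different chromosomes, were detected in the same liver cells, while Apob was detected in few of them. Each line gives the 200 bases before the GENCODE start, 5′ to 3′ on the gene's own strand, from RefSeq on GRCm38.p6, with a found motif in capitals. The windows are chr9:46228380-46228579 (plus strand) for Apoa1, chr1:171224854-171225053 (plus strand) for Apoa2, chr12:7977448-7977647 (plus strand) for Apob and chr7:19699189-19699388 (minus strand) for Apoe.
Apoa1: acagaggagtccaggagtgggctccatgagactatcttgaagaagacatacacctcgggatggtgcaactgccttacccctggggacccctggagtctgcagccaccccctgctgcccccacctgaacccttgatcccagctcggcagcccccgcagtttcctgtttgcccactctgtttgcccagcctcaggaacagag
Apoa2: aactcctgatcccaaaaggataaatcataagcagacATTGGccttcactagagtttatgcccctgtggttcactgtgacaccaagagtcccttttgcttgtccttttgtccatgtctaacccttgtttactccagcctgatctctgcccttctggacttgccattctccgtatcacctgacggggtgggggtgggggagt
Apob: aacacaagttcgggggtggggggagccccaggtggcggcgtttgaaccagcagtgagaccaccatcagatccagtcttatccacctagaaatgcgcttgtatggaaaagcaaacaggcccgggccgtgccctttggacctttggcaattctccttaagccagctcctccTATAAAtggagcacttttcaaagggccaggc
Apoe: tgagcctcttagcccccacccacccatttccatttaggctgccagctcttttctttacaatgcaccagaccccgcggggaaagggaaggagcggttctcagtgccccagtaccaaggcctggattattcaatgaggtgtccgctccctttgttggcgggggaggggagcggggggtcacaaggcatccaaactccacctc

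Both strands of each window were searched for 6 exact motifs, namely the TATA box as TATAAA, the CCAAT box, the GC box as GGGCGG, the nuclear receptor element as AGGTCA, the core of Hnf4 sites as CAAAGTC and the element GTTAAT. Apob held TATAAA at -31 to -26 from the start, a motif present in 9.96% of 32817 windows of the same length upstream of annotated genes. Apoa2 held CCAAT on the opposite strand at -164 to -160, a motif found in 29.3% of all windows. The GC box is present in 31.03% of all windows, the nuclear receptor element in 11.4%, the Hnf4 core in 3.04% and GTTAAT in 5.06%. Positions count from the GENCODE start, and the RefSeq start lies 50 bases further downstream for Apoa1 and 29 for Apob, so what a window holds depends on the start taken. The windows of all genes end at the RefSeq start. Apoa1 and Apoe held none of the 6 in these letters, and no motif was shared by any pair of the 4 windows. The windows are 60.5% G and C in Apoa1, 50% in Apoa2, 55% in Apob and 58.5% in Apoe.

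The libraries held 510222 to 3431728 reads per cell. The median was 2510704 in the liver and between 811359 and 1029064 in the foregut, the ventral and dorsal buds and the E14.5 plate, and the liver comparisons below are therefore repeated on cells thinned to 500000 reads. Checked against marker lists, 27 of 27 ventral and 70 of 86 dorsal cells had at least 3 epithelial markers, against 14 of 82 foregut cells, of which 61 had at least 3 neural markers. In the liver plate, 47 of 78 cells had at least 3 hepatoblast markers and 19 had at least 3 mesenchyme markers. The same hepatoblast count was reached by 27 of 27 ventral and 50 of 86 dorsal cells, so it does not set liver cells apart. On the E14.5 plate 58 of 73 cells had at least 3 mesenchyme markers, and 13 had 3 epithelial markers or more. The foregut and E14.5 labels thus cover mostly cells that lack the epithelial markers of the named organ. No doublet caller was run.

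Apoa1, Apoa2, Apoe and Lpl were highest on the liver plate, and 6 of the 8 cells with Apob were there, the other 2 being foregut cells. Ventral bud cells came next for Apoa2 and Apoe, and foregut cells next for Lpl. At E14.5 Apoa1, Apoa2 and Apob were not detected in any of the 73 cells.

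Apoa1 averaged 6.78 ± 5.46 in liver cells (SD over 78 cells), with a median of 10.32 and a highest cell of 13.11, and was detected in 48 of them (61.5%, exact 95% interval 49.8% to 72.3%). On all other plates its median was 0. It was detected in 3 of 27 ventral cells (11.1%, highest cell 7.59), 3 of 48 cells on plate 2A, 2 of 38 on plate 2B and 4 of 82 foregut cells (4.88%, highest cell 6.31). The step from liver to ventral bud, 6.04, was the one step between neighbouring plates, among all members, that went beyond the larger SD over cells.

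By difference of means, Apoa2 was the member that set the ventral bud most apart from the dorsal bud (4.63, against 4.19 for Apoe). By difference of medians Apoe came first (7.63, against 5.53 for Apoa2). On the liver plate the mean of Apoa2 was 8.21 ± 6.40, with 49 of 78 cells detected (62.8%, 51.1% to 73.5%) and the highest cell at 15.24. In the ventral bud it averaged 4.90 ± 4.82, with a median of 5.53, a highest cell of 13.09 and 15 of 27 cells detected (55.6%, 35.3% to 74.5%). Apoa2 was detected in 1 of 48 cells on plate 2A (level 7.56), 3 of 38 on plate 2B (highest 4.99) and 6 of 82 foregut cells (7.32%, highest 4.99). No read of it was found in the 73 cells of E14.5, which allows a share of up to 4.11%.

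Apob was the rarest of the 5. In the liver 6 of 78 cells had it (7.69%, 2.88% to 15.99%), and its mean was 0.67 ± 2.30, although the highest cell reached 11.30. The foregut held 2 such cells of 82 (2.44%), at levels up to 8.47. Among cells with at least 3 hepatoblast markers Apob was detected in 6 of 47 in the liver (mean 1.12) and 2 of 6 in the foregut (mean 1.97). It was detected in 0 of 27 such cells in the ventral bud, 0 of 50 in the dorsal bud and 0 of 6 at E14.5. There was no read of Apob in any ventral, dorsal or E14.5 cell, which allows shares of up to 11.1% in the ventral bud, 6.25% on plate 2A, 7.89% on plate 2B and 4.11% at E14.5.

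Apoe was found on every plate. It averaged 10.03 ± 4.67 in the liver (66 of 78 cells, 84.6%, 74.7% to 91.8%), 7.47 ± 3.65 in the ventral bud (22 of 27, 81.5%, 61.9% to 93.7%) and 5.32 ± 3.62 in the foregut (59 of 82, 71.95%, 60.9% to 81.3%). The 2 dorsal plates were close to each other, with 3.22 ± 3.73 on plate 2A (21 of 48 cells) and 3.37 ± 3.37 on plate 2B (20 of 38). Its lowest mean, 1.82 ± 3.39, was at E14.5 (18 of 73 cells, 24.7%, 15.3% to 36.1%), yet the single highest Apoe level of the table, 15.40, was there too. Ordered by mean, the plates ran liver, ventral bud, foregut, 2B, 2A and E14.5, and no neighbours in that order differed by more than their spread.

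Lpl followed a different order. It averaged 5.40 ± 4.45 in the liver (47 of 78 cells, 60.3%, 48.5% to 71.2%), and the foregut came next with 1.81 ± 2.81 (24 of 82, 29.3%, 19.7% to 40.4%). At E14.5 it averaged 0.99 ± 2.73 (9 of 73 cells, 12.3%, 5.80% to 22.1%, highest 10.55), on plate 2B 0.93 ± 2.34 and on plate 2A 0.41 ± 1.64. The ventral bud was last, with Lpl in 1 of 27 cells (3.70%) at a level of 6.11. None of these neighbours differed by more than the larger SD.

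**Figure D1:**
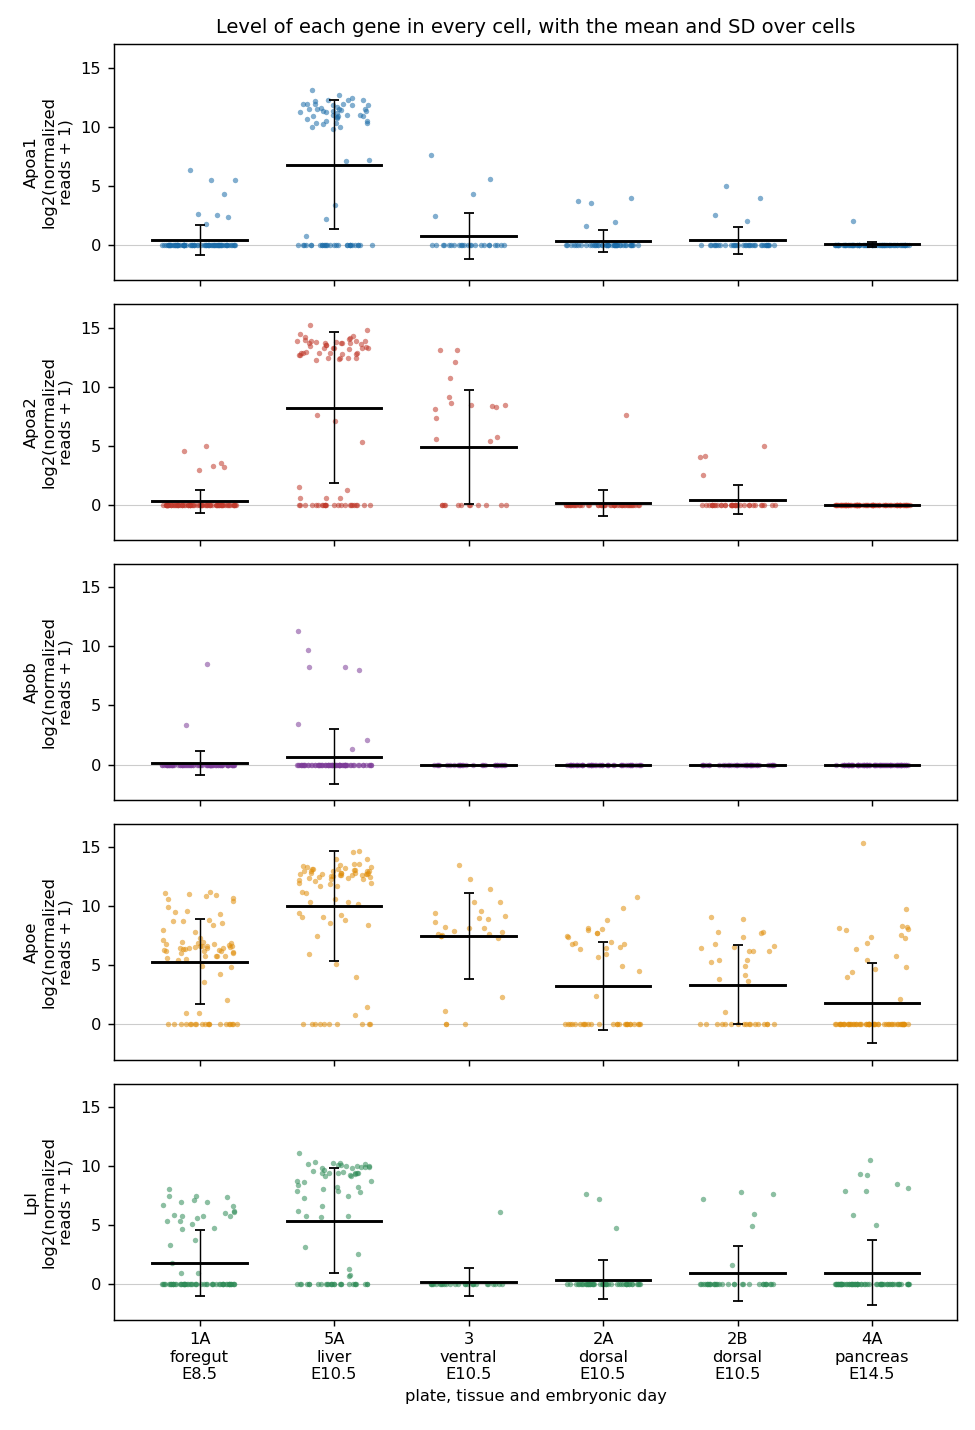
Level of each member, log2(normalized reads + 1), in every cell of the 6 plates, with 1 point a cell, a line at the mean and a bar of 1 SD over cells. On plate 5A (liver) most cells are either high or at 0 for Apoa1, Apoa2 and Lpl, while Apoe also takes many levels in between. Apoa2 reaches 13.09 on plate 3 (ventral bud), and the highest Apoe cell, 15.40, is on plate 4A (E14.5).

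Against the dorsal bud, 4 of the 5 members were higher in the liver, by 6.75 for Apoe, 7.94 for Apoa2, 6.45 for Apoa1 and 4.76 for Lpl, and Apob was 0.67 higher. Over all genes with a value in at least 5 of the cells compared, 4.42% were higher and 34.9% lower in the liver, and the median difference was -0.55. Thinned to 500000 reads a cell, the differences were 6.20 for Apoe, 7.57 for Apoa2, 6.07 for Apoa1, 4.43 for Lpl and 0.63 for Apob.

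The same 4 members were higher in the liver than in the ventral bud, where 7.72% of all genes were higher, 20% were lower and the median difference was -0.17. The differences were 6.04 for Apoa1, 5.17 for Lpl, 3.30 for Apoa2 and 2.56 for Apoe. On thinned cells they were 5.69 for Apoa1, 4.84 for Lpl, 2.90 for Apoa2 and 2.01 for Apoe. Over whole plates, Apoa1 and Lpl were thus the members that separated liver from ventral bud most. All 27 ventral cells had at least 3 epithelial markers, against 27 of the 78 liver cells. Among those cells, a choice made after seeing the data, the differences were 10.54 for Apoa1, 8.37 for Lpl, 8.29 for Apoa2 and 5.30 for Apoe. Lpl and Apoa2 were then close. Against the foregut the liver was again higher in 4 of 5, by 7.93 for Apoa2, 6.40 for Apoa1, 4.71 for Apoe and 3.59 for Lpl, with 2.76% of all genes higher, 43.3% lower and a median of -0.74. Apob was 0.53 higher than in the foregut, and -0.95 in cells without markers of other types, of which the foregut holds 6.

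Within the pancreas of E10.5, Apoa2 and Apoe were higher in the ventral than in the dorsal bud, by 4.63 and 4.19. These are 2 of the 4 members measured in at least 5 of those cells, against 2.59% of all genes higher and 25% lower, with a median difference of -0.39. Apoa1 differed by 0.41 and Lpl by -0.41. The 2 dorsal plates had Apoa2 means of 0.16 on plate 2A and 0.41 on plate 2B. Apoa2 was detected in few cells of either plate, so these means do not show how far plates differ where it is high.

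Relative to the foregut of E8.5, the ventral bud was higher in Apoa2 (4.63) and Apoe (2.15) and lower in Lpl (-1.58), while 3.34% of all genes were higher and 37.8% lower there. The Apoe difference turns to -1.60 when only cells with 3 or more epithelial markers are compared (27 ventral against 14 foregut cells), a choice made after seeing the data. It is -2.81 among cells without markers of other types, which leaves 6 foregut cells. The dorsal bud was lower than the foregut in Apoe (-2.04) and Lpl (-1.17), with 4.92% of all genes higher and 17.8% lower, and the Lpl difference falls short of 1 with plate 2B alone. In cells without markers of other types the dorsal difference was -6.58 for Apoe and -2.37 for Apoa1, against -0.05 for Apoa1 in all cells. Among cells with 3 or more epithelial markers it was -5.67 for Apoe and -1.18 for Apoa1.

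At E14.5 the mean Apoe level was lower than in the dorsal bud (-1.46) and than in the ventral bud (-5.65), and Apoa2 was lower than in the ventral bud too (-4.90). In these comparisons 2.92% of all genes were higher and 34.8% lower than in the dorsal bud, and 7.87% higher and 21.3% lower than in the ventral bud. The Apoe difference from the dorsal bud changes sign among cells with Prox1 detected (0.55, over 24 E14.5 and 83 dorsal cells) and among cells with 3 or more epithelial markers (1.22, over 13 and 70). As a ratio of linear means, which weights high cells most, it is 2.70 on the log2 scale. The 0.55 and the 2.70 both include 1 E14.5 cell with 11 macrophage and leukocyte markers and Apoe at 15.40. Neither was recomputed without that cell, so they do not show a higher Apoe level in E14.5 cells at large.

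In the liver plate the cells were split by Afp, the fetal counterpart of serum albumin, into 46 Afp-high cells (level of at least 10) and 31 Afp-low cells (under 5), with 1 cell between. Apoa1, Apoa2 and Apoe were detected in 46 of 46 Afp-high cells (lower 95% bound 92.3%) and Lpl in 42, while Apob was detected in 6. All 5 members were higher in Afp-high cells by at least 1, as were 31.5% of all genes, with 7.04% lower and a median difference of 0.41. Afp set the classes and is no result here.

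Apoa2 ran from 12.27 through a median of 13.41 to 15.24 in Afp-high cells (mean 13.39 ± 0.67), against 0, 0 and 7.57 in Afp-low cells (mean 0.62 ± 1.83, detected in 2 of 31). The means differed by 12.77, a size reached by 0.0281% of all genes. Apoa1 ran from 7.12 through 11.29 to 13.11 in Afp-high cells (mean 11.20 ± 0.98), against 0, 0 and 7.16 in Afp-low cells (mean 0.33 ± 1.33, detected in 1 of 31). Here the lowest Afp-high cell met the highest Afp-low cell, and the means differed by 10.87.

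Apoe, made by many cell types, overlapped more between the classes. Its lowest, median and highest levels were 11.70, 12.84 and 14.68 in Afp-high cells (mean 12.92 ± 0.62), against 0, 8.39 and 13.27 in Afp-low cells (mean 5.91 ± 4.92, detected in 19 of 31, 61.3%). The difference of 7.02 was thus one between a narrow high level and a wide spread of levels. Lpl ran from 0 through 9.37 to 11.14 in Afp-high cells (mean 8.11 ± 2.94, detected in 42 of 46, 91.3%, 79.2% to 97.6%), against 0, 0 and 10.15 in Afp-low cells (mean 1.22 ± 2.82, detected in 4 of 31, 12.9%). The Lpl difference was 6.89. On cells thinned to 500000 reads the differences were 12.21 for Apoa2, 10.32 for Apoa1, 6.69 for Apoe and 6.41 for Lpl.

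Apob stood apart from the other members in these cells. No read of it was found in 39 of the 46 Afp-high cells, and the 6 cells in which it was detected (13.04%, 4.94% to 26.3%) ran from 3.46 to 11.30. No Afp-low cell held a read of Apob, which allows a share of up to 9.68%. Its difference of 1.11 was smaller than the SD of 2.92 over Afp-high cells, and 28.7% of genes had a difference as high. The Afp-high libraries together held 7053 Apob reads, spread unevenly over few cells. The highest cell stood at 11.30, and the next at 9.74 and 8.25 on the log2 scale. Their median depth was 2657340 reads, against 2348434 in Afp-low cells, and why so few cells held Apob reads was not tested.

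Per length, the order of the members within Afp-high cells was clear. On the scale of RPKM, here over the summed reads of a class and the length of the longest transcript, Apoa2 stood at 12450, Apoe at 3307, Apoa1 at 1535, Lpl at 91.5 and Apob at 4.27. The Apob value rests on the few cells with its reads. In Afp-low cells on the same scale Apoe stood at 540.2, Apoa2 at 15.1, Lpl below that, Apoa1 at 2.95 and Apob at 0. The 5 genes together took 0.730% to 3.02% of a cell's reads in Afp-high cells, with a median of 1.30%, against 0% to 0.890% and a median of 0.0254% in Afp-low cells. Counted per cell, 36 Afp-high cells had 4 members, 6 had all 5 and 4 had 3, whereas 11 Afp-low cells had none, 15 had 1, 4 had 2 and 1 had 3.

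Cells near the class limits followed the classes for most members. The Afp-high cell with the lowest Afp (11.60) had Apoa1 at 11.93, Apoa2 at 13.54, Apoe at 12.75 and Lpl at 10.02. The cell between the limits (Afp 6.57) had Lpl at 9.95, inside the Afp-high range, but Apoa1 at 3.32, Apoa2 at 5.26 and Apoe at 5.08. It also had 4 cardiac markers. An Afp-low cell with Afp at 1.91 had Apoa1 at 7.16, Apoe at 8.86 and Lpl at 8.68 with no Apoa2 read, and the Afp-low cell nearest the limit (Afp 3.69) had Apoa2 and Apoe at 1.48 and Lpl at 0.68.

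Markers of other cell types moved with the split. At least 3 mesenchyme markers were found in 0 Afp-high and 19 Afp-low cells, and at least 3 cardiac markers in 0 Afp-high and 11 Afp-low cells. The summed mesenchyme level ran from 0 to 7.52 in Afp-high cells (median 0), against 0 to 13.24 in Afp-low cells (median 10.90), and the summed cardiac level from 0 to 10.60 (median 0), against 0 to 15.63 (median 9.07). Hepatoblast markers were the reverse, with 14 of 14 measured higher in Afp-high cells, and Alb was detected in 0 of the 31 Afp-low cells. Of 4 measured markers of yolk sac visceral endoderm, another known source of apolipoproteins, 3 were higher and 1 lower in Afp-high cells. The part of cell type in these differences was not tested. A single Afp-low cell carried macrophage and leukocyte markers and held the highest Apoe (13.27) and Lpl (10.15) of its class. Without it, a choice made after seeing the data, the differences were 7.26 for Apoe and 7.19 for Lpl.

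**Figure D2:**
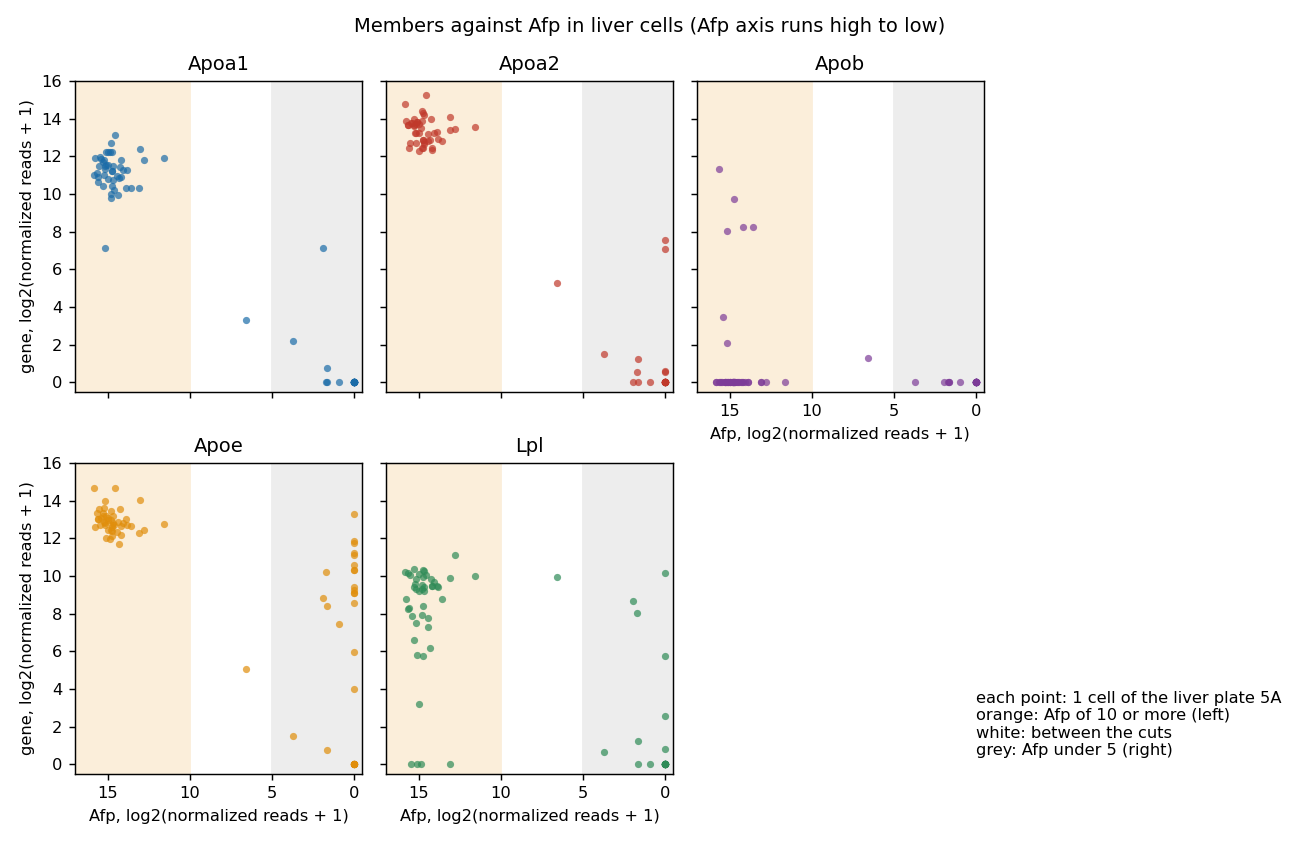
Level of each member (y axis, log2(normalized reads + 1)) against that of Afp (x axis, same unit, high to low) in the 78 liver cells, with 1 point a cell and the Afp-high and Afp-low classes shaded. Apoa1 and Apoa2 form a tight group at high Afp, Apoe stays spread between 0 and 13.27 at low Afp, and Apob is at 0 in most cells of both classes.

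In the ventral bud, the mean level of Apoa2 was higher in classes of higher Afp, while that of Apoe had no such order. The 7 ventral cells with Afp of at least 10 had Apoa2 at 8.45 ± 4.60 (detected in 6), the 12 cells between 5 and 10 at 5.65 ± 4.42 (in 8), and the 8 cells under 5 at 0.68 ± 1.91 (in 1). Apoe was at 7.59 ± 5.60 (detected in 5), 6.77 ± 3.52 (in 9) and 8.43 ± 1.08 (in 8) in the same 3 classes. Over the 27 cells Pearson's r with Afp was 0.69 for Apoa2 and -0.05 for Apoe, and 0.18 between the members, as a description of cells that share a plate. Apoe was thus present in all 8 cells with Afp under 5, at levels of 7.36 to 10.34. Its 3 highest ventral cells, at 13.52, 12.33 and 11.46, were nonetheless the 3 cells with the highest Afp, and 2 Afp-high cells had no Apoe read.

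Pdx1, a transcription factor that marks pancreatic progenitors, divided the cells in the opposite sense. Most cells with Pdx1 also had Afp under 5, so this division largely repeats that by Afp. The 8 cells with Pdx1 had Apoa2 at 0.68 (detected in 1), against 6.68 ± 4.57 in the 19 cells without it (in 14). Apoe was 7.21 ± 3.09 in Pdx1 cells (detected in 7) and 7.58 ± 3.93 in the others (in 15). Apoa1 was detected in 1 cell of each Afp class and Lpl in 1 Afp-high cell. In RPKM, ventral cells with Afp of at least 10 had 3611 for Apoa2 and 1356 for Apoe, both below the Afp-high liver cells given above. Apoe had 249.8 in the ventral cells between 5 and 10 and 330.8 in those under 5, so on this linear scale it was highest in the Afp-high class. Alb was detected in none of those 7 cells.

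**Figure D3:**
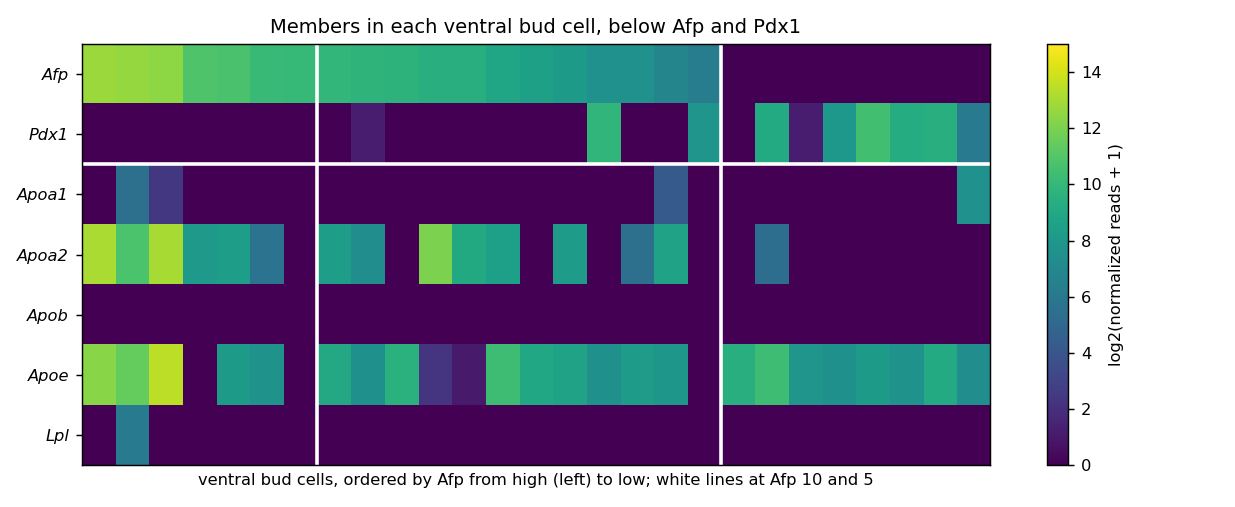
Levels of Afp, Pdx1 and the 5 members, log2(normalized reads + 1) by colour, in the 27 ventral bud cells, with 1 column a cell in order of Afp. Bright colours are high levels: Apoa2 is bright in the columns with high Afp (up to 13.09), Apoe is bright at both ends, and the Apob row is 0 throughout.

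In the foregut, Apoe was lower in cells with neural markers than in the rest, and higher in cells with markers of several other types, epithelial ones among them. It was detected in 14 of 14 cells with at least 3 epithelial markers, at 9.07 ± 1.78, against 45 of 68 other foregut cells with a mean of 4.55. The 61 cells with neural markers had it at 4.00 ± 3.13 (38 detected), against 9.17 in the other 21 cells (21 detected). All 6 cells with hepatoblast markers had Apoe, at 10.66 ± 0.60, and 4 of 4 cells with endothelial markers had it, at 9.82, the highest foregut cell (11.19) among them. Cells with cardiac markers had Apoe at 7.56 ± 2.64 (12 of 13), and cells with mesenchyme markers at 7.56 ± 1.36 (7 of 7). A high Apoe level was thus not particular to the epithelial cells. Lpl did not follow the neural markers, with means of 1.79 in neural-marker cells (18 of 61) and 1.86 in the rest (6 of 21). The 2 foregut cells with Apob carried 8 and 10 epithelial markers and Afp levels of 6.91 and 9.70. The 4 foregut cells with Apoa1 also had epithelial markers.

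In the dorsal bud, Lpl was found more among cells with mesenchyme markers, with a mean of 1.82 ± 3.01 (5 of 19 cells) against 0.30 in the other cells (3 of 67). Apoe was spread over both kinds, at 3.40 in cells with epithelial markers (34 of 70) and 2.78 in those without (7 of 16). In the 24 cells with endocrine markers Lpl was not detected and Apoe averaged 3.10 ± 3.32 (11 detected). The 9 dorsal cells with Afp between 5 and 10 had no Apoa2 read, against Apoa2 detected in 8 of 12 ventral cells in that range. Apoa1 was detected in 0 of the 9 and in 1 of the 12. Afp ran from 5.27 to 7.85 in these dorsal cells and from 6.30 to 9.91 in these ventral cells, so the 2 sets were not matched for Afp.

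At E14.5 Apoe was higher in the minority of cells without mesenchyme markers, with a mean of 5.03 (9 of 15), whereas cells with such markers had 0.99 (9 of 58). It averaged 4.62 ± 4.01 in the 13 cells with epithelial markers (8 detected), against 1.22 in the other 60 cells (10 detected). Lpl was detected in 8 of 58 cells with mesenchyme markers and 1 of 15 without. The cell with Apoe at 15.40 carried 11 macrophage and leukocyte markers, and Apoe alone made up 3.72% of its reads. Without that cell the E14.5 mean was 1.64 (17 of 72 cells) and the difference from the dorsal bud was -1.65.

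The members were then set beside 6 lists of genes of lipoprotein biology in Afp-high against Afp-low liver cells. Genes listed for lipoprotein assembly and secretion were higher in 15 of 16 measured, with a median difference of 2.24 against 0.41 over all genes. The list also holds general chaperones and transport genes of the secretory pathway, so its count is not particular to Apob. Of all genes 31.5% were higher and 7.04% lower, the shares against which this and the next lists are to be read. Mttp, which loads fat onto Apob, averaged 5.76 in Afp-high cells (31 of 46 detected), against 0.28 in Afp-low cells (1 of 31). Mia2, which helps export large cargo from the endoplasmic reticulum, averaged 4.72 against 0.73, and Sar1b, a GTPase of the same step, 6.54 against 2.82. A1cf, a partner of the enzyme that edits Apob RNA, averaged 3.74 (21 of 46) against 0. Sar1a was the gene not called, at a difference of 0.65. Mttp, Mia2, Sar1b and A1cf were each detected in more Afp-high cells than Apob itself.

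Among other apolipoproteins 3 of 7 measured were higher and none lower, with a median of 0.83, a share not far from the 31.5% of all genes. Apom, a carrier of sphingosine phosphate on high density lipoprotein, averaged 11.82 in Afp-high cells (46 of 46) and 0.30 in Afp-low cells (1 of 31). Apof averaged 4.98 (25 of 46) against 0, and Apoc1, which slows the uptake of particles by receptors, 4.98 (34 of 46) against 0.02. Lipases and their partners were higher in 7 of 10 with a median of 1.45. Lcat, the enzyme activated by Apoa1, averaged 4.91 (26 of 46) against 0.02, Angptl8, a secreted protein that takes part in the inhibition of Lpl, 2.99 against 0, and Lipc, the hepatic lipase, 1.99 against 0.

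Receptors and uptake genes were higher in 5 of 13 measured, with a median of 0.62, near that of all genes. Sdc1, a heparan sulfate proteoglycan that binds particles at the cell surface, averaged 4.68 in Afp-high cells (28 of 46), against 0.66 in Afp-low cells (3 of 31), and Sort1, a sorting receptor of the Golgi, 2.53 against 0.71. Transporters and lipid handling genes were higher in 10 and lower in 4 of 18, with a median of 1.08. Fabp5, a fatty acid binding protein, averaged 9.82 against 3.26, and Abca1, which loads cholesterol onto Apoa1, 5.13 against 0.84. The 4 lower genes were Abcg1, Soat1, Plin3 and Plin2, of which Abcg1 was furthest apart, at 0.25 in Afp-high and 2.89 in Afp-low cells.

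Known regulators of apolipoprotein genes were higher in 11 and lower in 3 of 26, with a median of 0.84, not far from the 31.5% higher and 7.04% lower of all genes. Hnf4a, a nuclear receptor that drives Apoa1 and Apob in hepatocytes, averaged 4.80 in Afp-high cells (26 of 46), against 0.04 in Afp-low cells. Onecut2 averaged 4.35 (26 of 46) against 0, and Prox1, the gene of the reporter by which cells were sorted, 11.52 against 4.44. Nr2f2, known to repress hepatocyte genes bound by Hnf4a, was lower, with 1.88 (15 of 46) in Afp-high cells against 7.97 (29 of 31) in Afp-low cells. Nr2f1 and Gata4 were lower as well. Of the 31 Afp-low cells, 19 had at least 3 mesenchyme markers and 0 had 3 hepatoblast markers. The part of cell type in these regulator differences was not tested.

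**Figure D4:**
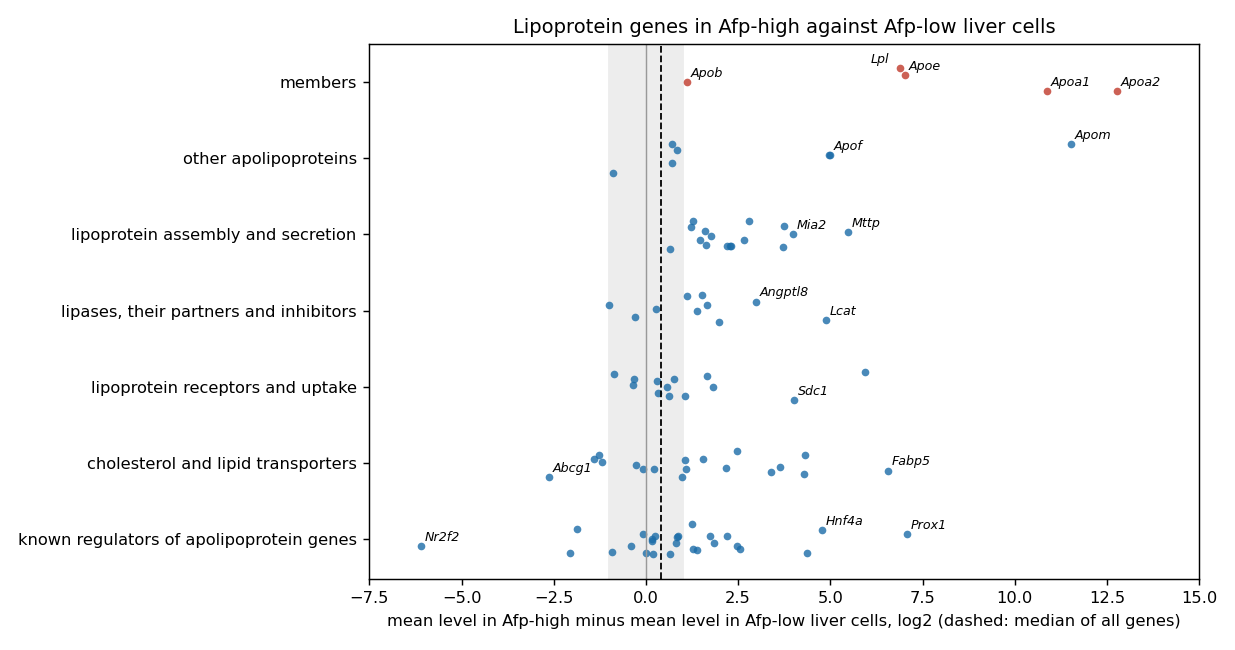
Difference of mean level (x axis, log2, Afp-high minus Afp-low liver cells) for each measured gene of the members and the 6 lists (y axis), with 1 point a gene, the range under 1 in size shaded and the median of all genes, 0.41, dashed. Assembly and secretion genes lie almost all above 1, while Nr2f2 lies far below the rest.

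The same lists were counted between the buds and between liver and ventral bud. Ventral against dorsal cells had 2 of 8 other apolipoproteins higher and 1 lower, with Apom at 3.63 against 1.19 and Apof at 2.13 against 0.36. Assembly and secretion genes were higher in 0 and lower in 5 of 16, near the 2.59% higher and 25% lower of all genes. Against the ventral bud, the liver was higher in 6 and lower in 1 of 16 assembly and secretion genes, Mttp among the higher with 3.51 against 1.40, where 7.72% of all genes were higher and 20% lower. Regulators were higher in 1 and lower in 8 of 30 in the liver, near those shares. Hnf4a was the higher one, at 2.87 in the liver and 1.27 in the ventral bud, whereas Foxa2 had 1.29 against 5.70 and Onecut1 0.49 against 4.13.

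The genes whose levels were most like each member's over all 346 cells, among 9403 genes, were mostly genes for other plasma proteins. For Apoa1 they were Serpina6 (Pearson's r 0.91), Trf (0.89) and Alb (0.88), and for Apoa2 they were Afp (0.91), Itih2 (0.91) and Fgb (0.89). Apoe was less closely matched, with Fgg (0.65), Trf (0.64) and Afp (0.63), and Lpl likewise with Serpind1 (0.65), Serpina6 (0.65) and Serpinc1 (0.63). The best matches of Apob, Shbg (0.36), Fga (0.34) and Serpina1d (0.32), were weak. The cells share plates and depth, and the values are a description.

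Within the 46 Afp-high cells, among 2084 genes, other genes came first. Apoa2 was most like Rbp4 (0.78), Sub1 (0.71) and Uqcr10 (0.70), Apoa1 most like Banf1 (0.72), Uqcr11 (0.71) and Hnrnpc (0.62), and Apoe most like Ubb (0.65), Cox5b (0.64) and Ftl1 (0.64). For Lpl the first were Sec24c (0.50), Ppp1r14b (0.49) and Taok1 (0.49), and for Apob Ppa2, Spin1 and Myc at 0.39 each. Ranked by Spearman's rho instead, 1 or 2 of the 3 genes were the same for each member. Between members, r was 0.59 for Apoa2 and Apoe, 0.28 for Apoa1 and Apoa2 and 0.04 for Apoa1 and Apoe within these cells, although Apoa1 and Apoa2 were correlated at 0.88 over all cells and at 0.96 over the liver plate.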

How the data were processed

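GFP-positive cells were sorted by flow cytometry into plates and prepared with the Nextera XT kit, per the labels' protocols. STAR 2.5.3, Cufflinks, Cuffdiff 2.2.1 and GRCm38 are named in the submitters' processing notes. For the counter, annotation, size factors and filters nothing is stated in the sources used here. What the authors deposited is 1 table of log2 values for 20474 genes and 346 cells, with 76.7% of entries empty. The unit was settled from the values: all but 20 of 1647530 deposited log2 values turn into whole reads (within 0.01) as log2(reads / size factor + 1). Empty entries were set to 0.

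Depth was 510222 to 3431728 recovered reads per cell. Mean, SD over cells, differences of means and shares with exact Clopper-Pearson 95% intervals were computed. Intervals and limits (3 divided by the cell number for a share of 0) cover counting error only, since PCR reads are not independent molecules. The background is every gene with a value in at least 5 of the cells compared.

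The members, the 6 pathway lists and the 11 marker lists were chosen with earlier results of these data known. Named genes are the members, Afp, Alb and Prox1, up to 4 genes of a list with the largest difference, and the 3 genes with the highest Pearson correlation with each member, detected in at least 10% of all cells or 50% of Afp-high cells, without ribosomal, mitochondrial or predicted genes, Xist or Y-linked genes. Sar1a, Plin2, Plin3, Abcg1, Soat1, Nr2f1, Gata4, and Pdx1 as a divider of cells, are named beside that rule. Alternatives were other offsets, linear means, 2 scalings, thinning to 500000 reads, other detection limits, subsets of cells and each dorsal plate alone; 2 (cells with 3 or more epithelial markers, and leaving out the cells with leukocyte markers) were added after seeing the data. The steps were tested on simulated data. Tools were python 3.11.15, numpy 2.4.6, pandas 2.3.3, scipy 1.17.1 and matplotlib 3.10.9. Some genes of the lists are counted but not reported here by name.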

Additional observations from a re-analysis of the deposited data

How the results depend on the processing

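The liver was higher in 4 members in each of its 3 comparisons under the alternatives run, or in all 5 with linear means (and, against the buds, in cells without other types' markers or with 3 or more epithelial markers), and Afp-high cells were higher in 5, or in 4 with an offset of 10 reads. Between Afp-high and Afp-low cells the difference ranged from 7.74 to 13.92 for Apoa1, 9.78 to 15.51 for Apoa2, 3.11 to 8.14 for Apoe, 3.34 to 9.16 for Lpl and 0.66 to 6.55 for Apob. Of 218 recomputed counts of members 199 stayed within 1.5 times the reported one. Of 484 recomputed differences 439 both moved by less than the larger SD over cells and stayed on the same side of the limit of 1 in size. For ventral bud minus foregut the 1 lower member became 0 with an offset of 10, 2 with linear means, 4 in cells without other types' markers and 2 in cells with 3 or more epithelial markers, and the 2 higher became 1 in both of these sets, where the Apoe difference turned to -2.81 and -1.60. For dorsal bud minus foregut the 2 lower members became 1 with an offset of 10 or with plate 2B alone, and 4 in cells without other types' markers. For ventral minus dorsal bud, linear means gave 1 lower member, where 0 was reported. For E14.5 minus dorsal bud the 1 lower member became 0 with an offset of 10, among cells with Prox1, in cells without other types' markers and in cells with 3 or more epithelial markers, and 2 with linear means. The 0 higher became 2 with linear means and 1 among epithelial cells, and Apoe turned to 2.70 with linear means, 0.55 with Prox1 and 1.22 among epithelial cells. The 2.70 and the 0.55 include the leukocyte-marker cell with Apoe at 15.40. For E14.5 minus ventral bud 1 member became higher with an offset of 0.1 or with linear means. The causes were not tested. Median-of-ratios scaling moved the median of all genes to -0.77 in liver minus dorsal bud, against -0.55 as reported, and to 0.32 in Afp-high minus Afp-low cells, against 0.41. Of 90 recomputed shares of cells on plates 77 stayed inside their interval.

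No paired analysis was possible because the replicate numbers only count cells in accession order and no animal is named. With 1 sample a group no difference has a replicate check. Depth limits what a 0 means: 3 reads in the shallowest cells are a larger share than in the liver, 0 of 27 ventral cells still allows a share of up to 11.1%, and the foregut holds 6 cells without other types' markers.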
